A study of Mus musculus with 16 samples.

Results

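Irf8, Batf3, Id2, Nfil3, Bcl6, Irf4, Klf4, Zeb2, Rbpj and Zbtb46 are 10 transcription factors of the lineage of classical dendritic cells (DCs). They were taken by name from the 19938 genes that had a probe set with a single gene symbol. Each gene was read from its probe set with the highest mean, and 9 of the 10 had only 1 such probe set. The second probe set of Rbpj lay between 4.96 and 5.59 on the log2 scale over the 16 arrays and was not used. The probe sets were 10576034 for Irf8 (chromosome 8), 10352717 for Batf3 (chromosome 1), 10399691 for Id2 (chromosome 12), 10409278 for Nfil3 (chromosome 13) and 10438738 for Bcl6 (chromosome 16). For the others they were 10404389 for Irf4 (chromosome 13), 10513008 for Klf4 (chromosome 4), 10482448 for Zeb2 (chromosome 2), 10521913 for Rbpj (chromosome 5) and 10490682 for Zbtb46 (chromosome 2).

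The study hybridised RNA of sorted DCs to 16 arrays (Affymetrix Mouse Gene 1.0 ST), 2 for each of 8 groups. The groups were KO (Ciita -/-, Zbtb46 GFP/+) and WT (Ciita +/+, Zbtb46 GFP/+) mice of strain B6, each with CD24+ and CD172a+ DCs, taken either from bone marrow (BM) cultures or from spleen. BM was grown for 9 days in 5% Flt3l, the cytokine that drives DC development, and was then activated with gamma interferon and, for 4 hours, with LPS, a bacterial cell wall product. The interferon step lasted 16 hours by the series design and 22 hours by the growth protocol. Spleen cells were taken under homeostasis, and cultures that were not activated are not among the groups, so source and activation cannot be told apart in any comparison of culture with spleen. Each of the 8 mice gave 1 CD24+ and 1 CD172a+ array. All mice carried 1 GFP allele of Zbtb46, so none had both alleles of that factor intact, and the sources used here do not say whether its probe set reads the GFP allele. Each group held 2 mice, so p-values rest on the spread between few animals.

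Classical DCs fall into cDC1, which present the antigens of dead cells to CD8 T cells, and cDC2, which mainly prime CD4 T cells. CD24 marks cDC1 and CD172a, the product of Sirpa, marks cDC2 in cultures grown with Flt3l. In mice, Irf8 with its AP-1 partner Batf3 sets up and maintains the cDC1 programme, Id2 blocks E proteins such as Tcf4 that drive plasmacytoid DCs (pDCs), and Nfil3 and Bcl6 are repressors required for normal cDC1 development. Irf4 is needed for cDC2 function and Klf4 for a group of cDC2, Zeb2 represses Id2 and holds back cDC1 fate, and Rbpj is the DNA-binding partner of activated Notch receptors, which splenic cDC2 need. Zbtb46 is a repressor found in classical DCs of both kinds and in their committed precursors.

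The cultures were treated with gamma interferon, so the promoters of the factors that hold the motif called the gamma interferon activated site are shown first. The motif searched was TTCNNNGAA, which reads the same on both strands, in RefSeq windows (GRCm38.p6) from 250 bases before to 50 bases after each gene start. Capitals in the 4 windows mark the matches.
Irf8 window 1, chr8:120736108-120736407, plus strand: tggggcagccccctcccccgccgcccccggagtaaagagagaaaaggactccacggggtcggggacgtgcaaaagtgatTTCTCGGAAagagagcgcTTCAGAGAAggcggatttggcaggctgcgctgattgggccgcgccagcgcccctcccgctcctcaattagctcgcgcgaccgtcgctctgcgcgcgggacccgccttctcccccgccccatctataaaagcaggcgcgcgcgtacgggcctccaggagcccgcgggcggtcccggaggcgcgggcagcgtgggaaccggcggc
Batf3 window 1, chr1:191098164-191098463, plus strand: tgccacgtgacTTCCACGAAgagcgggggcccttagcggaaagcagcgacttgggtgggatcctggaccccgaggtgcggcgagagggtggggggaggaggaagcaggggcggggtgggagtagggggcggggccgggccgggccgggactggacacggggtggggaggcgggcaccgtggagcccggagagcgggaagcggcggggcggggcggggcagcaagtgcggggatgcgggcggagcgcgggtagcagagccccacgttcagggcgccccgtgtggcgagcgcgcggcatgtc
Bcl6 window 1, chr16:23988803-23989102, minus strand: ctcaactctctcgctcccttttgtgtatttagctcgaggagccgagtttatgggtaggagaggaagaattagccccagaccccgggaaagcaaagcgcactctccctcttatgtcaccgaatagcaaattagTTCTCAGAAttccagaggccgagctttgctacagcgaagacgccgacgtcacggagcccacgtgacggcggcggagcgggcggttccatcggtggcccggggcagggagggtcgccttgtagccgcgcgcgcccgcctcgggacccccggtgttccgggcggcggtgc
Bcl6 window 2, chr16:23981234-23981533, minus strand: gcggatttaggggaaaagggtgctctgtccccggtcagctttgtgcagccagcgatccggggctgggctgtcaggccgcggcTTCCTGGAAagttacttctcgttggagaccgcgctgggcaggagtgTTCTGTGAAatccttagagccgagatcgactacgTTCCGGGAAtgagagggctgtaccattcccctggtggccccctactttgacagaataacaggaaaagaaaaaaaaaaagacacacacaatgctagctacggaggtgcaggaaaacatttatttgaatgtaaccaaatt
Window 1 of Irf8 held 2 matches, at -171 to -163 and -153 to -145 from the start, and Bcl6 window 2 held 3, at -168 to -160, -122 to -114 and -88 to -80. Batf3 had 1 match at -239 to -231 and Bcl6 window 1 had 1 at -118 to -110. In all, the motif was in 6 of the 16 windows of the factors, against 8.3% of 32851 windows of the same length, and 0.457% of those held at least 2 matches. These windows belonged to 4 of the 10 genes. Some genes have several windows and no share per gene was counted over all genes, so the 8.3% is no background for that count. The remaining gene was Zeb2, whose windows 2 and 3 overlap and share 1 match. The interferon response element core GAAANNGAAA was in 0 of the 16 windows (3.44% of all windows), the E-box CAGGTG in 3 (20.2%), the Rbpj core TGGGAA in 5 (25.6%) and the AP-1 site TGANTCA in 2 (7.81%), each on either strand. No match overlapped a match of another motif. A match is a description of these letters and not a site in use.

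Several checks of the arrays bear on the results. Ciita itself, the targeted gene, gave 9.70 and 8.14 in cultured CD24+ KO arrays and 10.51 and 10.85 in WT arrays, 8.35 and 7.17 in cultured CD172a+ KO arrays and 10.15 and 10.62 in WT arrays, and between 10.90 and 11.40 in all 8 spleen arrays. Its genotype change passed in none of the 4 groups by limma (adjusted p = 0.087 to 1.00), and the sources used here do not place its probes inside or outside the deletion. H2-Ab1 and H2-Eb1, MHC class II genes that Ciita drives, passed as lower in KO in all 4 groups, with changes of -1.89 to -5.51 (log2). H2-Aa, another class II gene, passed as lower in both cultured groups and in spleen CD172a+ cells (-0.93 to -3.69). In spleen CD24+ cells H2-Aa did not pass (-0.51, adjusted p = 0.653 by limma). The sort was visible in the genes it used or aimed at. Of 10 cDC1 markers, 9 passed as higher in CD24+ cells in culture and 10 in spleen. Of 10 cDC2 markers, 4 passed as lower in CD24+ cells in culture and 10 in spleen, and their mean level was 6.78 to 7.03 on the cultured CD172a+ arrays and 10.25 to 10.32 on those from spleen. The mean of the cDC2 markers was thus near the array median in the cultured CD172a+ cells. Sirpa, the sorted marker among them, was at 11.07 to 11.37 there. Cd24a itself did not separate the cultured subsets, with 13.00 to 13.16 in CD24+ and 12.98 to 13.05 in CD172a+ arrays. Array medians were 6.85 to 6.92 in culture and 7.29 to 7.32 in spleen, so comparisons between them use values from which each array's own median was subtracted.

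Cultured CD24+ KO replicate 2 stood apart from the other 3 cultured CD24+ arrays. Xcr1, a chemokine receptor of cDC1, was at 9.58 there and at 10.41 to 10.87 on the others, while Sirpa was at 9.17 and at 8.36 to 8.43. Its mean over the 10 cDC1 markers was 10.29, against 10.69 to 10.82. For 8 of the 8 factors that separated the cultured subsets, this array lay outside the other 3 on the side of CD172a+ cells. How many of all genes did so was not counted, so this describes the array and is not a trait of the factors. In bulk RNA, fewer cells of a type and less RNA per cell cannot be told apart.

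Over the 8 group means the factors spanned between 0.87 on the log2 scale for Zbtb46 and 4.39 for Irf8. The pooled SD between the 2 arrays of a group was 0.09 for Id2, the lowest, and 0.40 for Nfil3, the highest. Irf8, Klf4, Irf4 and Zeb2 had the widest spans, and these were set by spleen CD172a+ cells (Irf8), by culture against spleen (Klf4) and by subset (Irf4 and Zeb2).

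**Figure D1:**
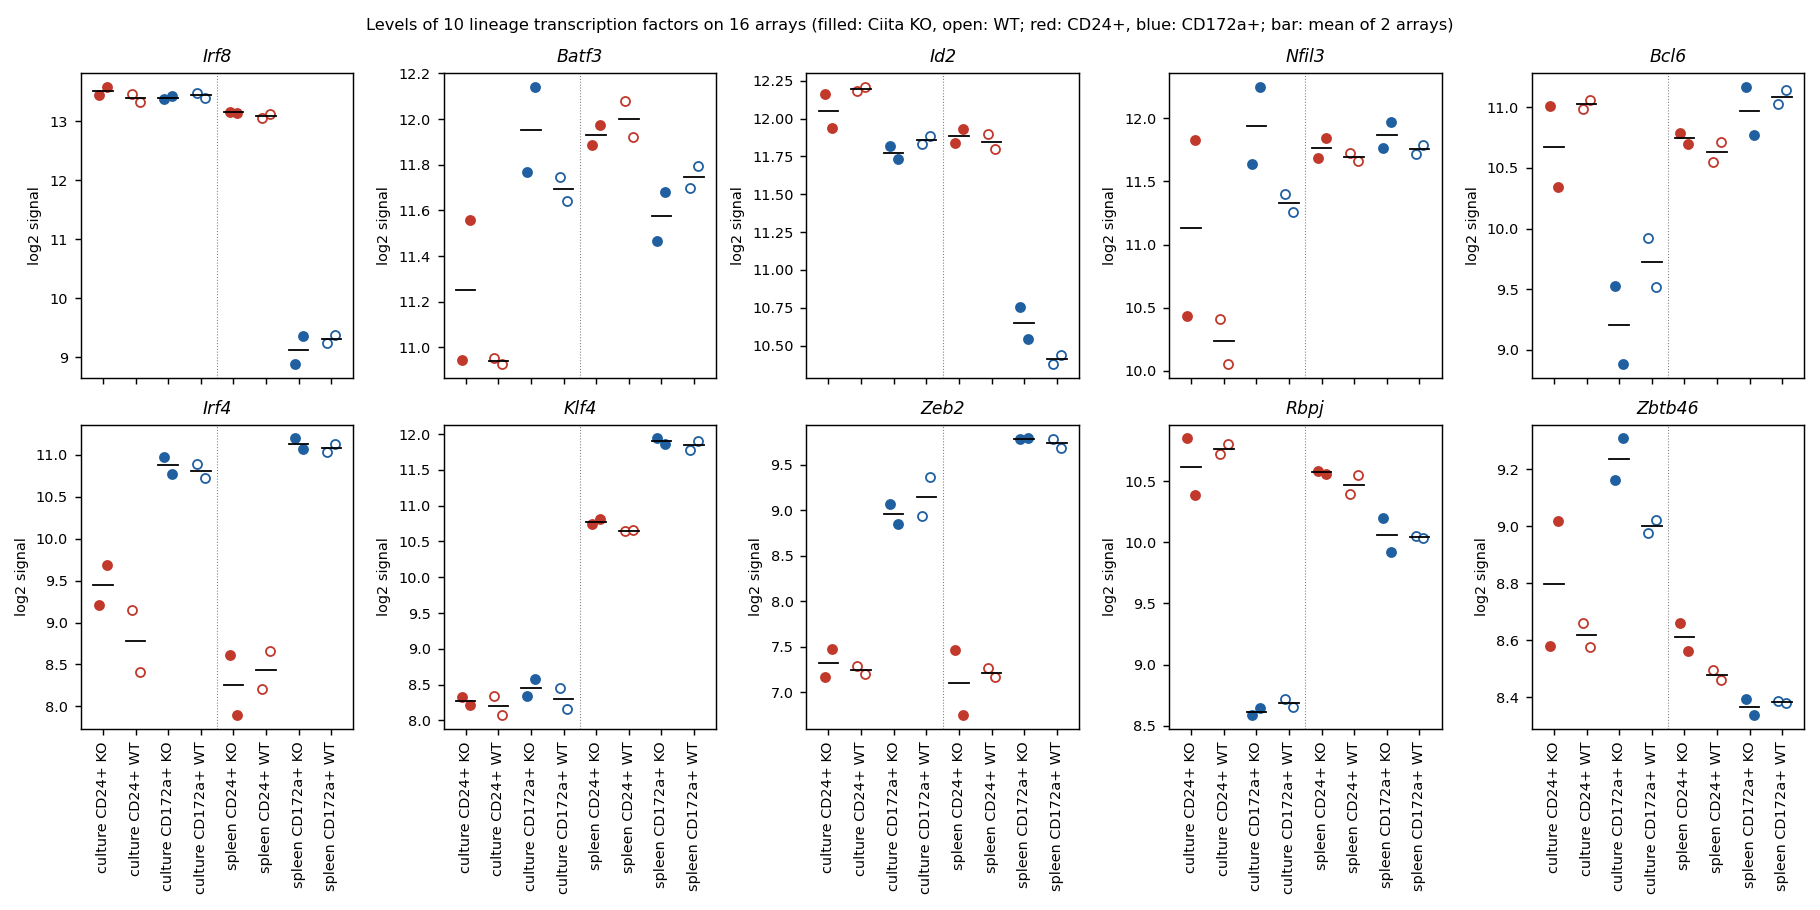
Log2 signal of each of the 10 factors (vertical axes, each with its own range) on the 16 arrays, with the 4 culture groups left of the 4 spleen groups, KO as filled and WT as open points, CD24+ in red and CD172a+ in blue, and the mean of 2 arrays as a bar. Irf8 lies between 13.05 and 13.58 in all groups except spleen CD172a+ cells, where it is between 8.89 and 9.38.

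In the activated cultures, Rbpj, Bcl6 and Id2 were higher in CD24+ than in CD172a+ cells, and Zeb2, Irf4, Nfil3, Batf3 and Zbtb46 were lower, while Irf8 and Klf4 did not pass. These were 8 of the 10 factors (limma with Benjamini-Hochberg adjustment over 19938 genes, threshold 0.05, both genotypes averaged, 4 arrays per subset), where 24.9% of all genes passed, 11.2% as higher and 13.7% as lower. The median size of the change was 0.84 over the factors and 0.09 over all genes. All 10 factors lay above the median level of all genes. With only the 9969 genes above that level tested, 4580 passed, so the share of all genes is a low background for the factors. Levels are log2 signals as deposited, and differences are in log2 units ± SE.

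Irf8 gave 13.45 and 13.58 in CD24+ KO and 13.46 and 13.32 in CD24+ WT arrays, against 13.37 and 13.42 in CD172a+ KO and 13.48 and 13.39 in CD172a+ WT arrays. The subsets overlapped, and the difference of 0.04 ± 0.09 had a 95% interval of -0.15 to 0.23 (adjusted p = 0.839). Batf3 gave 10.94 and 11.56 in CD24+ KO and 10.95 and 10.93 in CD24+ WT arrays, against 11.77 and 12.14 in CD172a+ KO and 11.75 and 11.64 in CD172a+ WT arrays. It was thus 1.66-fold lower in the CD24+ cells, by -0.73 ± 0.12 (adjusted p = 0.000679) and without overlap. Nfil3 gave 10.43 and 11.83 in CD24+ KO and 10.41 and 10.06 in CD24+ WT arrays, against 11.64 and 12.25 in CD172a+ KO and 11.40 and 11.26 in CD172a+ WT arrays. Here CD24+ KO replicate 2 fell among the CD172a+ arrays, and the change was -0.95 ± 0.23 (adjusted p = 0.00914) with it and -1.30 ± 0.13 without it. Without CD24+ KO replicate 1 the change was -0.60, which also passed. Id2 gave 12.16 and 11.93 in CD24+ KO and 12.18 and 12.21 in CD24+ WT arrays, against 11.82 and 11.73 in CD172a+ KO and 11.83 and 11.89 in CD172a+ WT arrays. The difference of 0.31 ± 0.06, or 1.24-fold, passed (adjusted p = 0.00372). Bcl6 gave 11.01 and 10.34 in CD24+ KO and 10.99 and 11.07 in CD24+ WT arrays, against 9.53 and 8.88 in CD172a+ KO and 9.93 and 9.52 in CD172a+ WT arrays. Bcl6 was 2.62-fold higher in CD24+ cells without overlap, at 1.39 ± 0.17 (adjusted p = 6.55e-05).

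Rbpj had the largest change of the 10 in culture. It gave 10.85 and 10.38 in CD24+ KO and 10.72 and 10.80 in CD24+ WT arrays, against 8.59 and 8.64 in CD172a+ KO and 8.72 and 8.66 in CD172a+ WT arrays. The difference was 2.04 ± 0.09, or 4.11-fold higher in CD24+ cells (adjusted p = 3.20e-08). The second Rbpj probe set, below the array medians at 4.96 to 5.59, gave a difference of 0.05. Irf4 gave 9.22 and 9.69 in CD24+ KO and 9.15 and 8.41 in CD24+ WT arrays, against 10.98 and 10.77 in CD172a+ KO and 10.89 and 10.72 in CD172a+ WT arrays. Zeb2 gave 7.17 and 7.47 in CD24+ KO and 7.28 and 7.20 in CD24+ WT arrays, against 9.07 and 8.85 in CD172a+ KO and 8.93 and 9.36 in CD172a+ WT arrays. Both were lower in CD24+ cells without overlap, Irf4 by -1.73 ± 0.19 (3.31-fold, adjusted p = 3.02e-05) and Zeb2 by -1.77 ± 0.14 (3.41-fold, adjusted p = 2.40e-06). Klf4 gave 8.33 and 8.21 in CD24+ KO and 8.34 and 8.08 in CD24+ WT arrays, against 8.34 and 8.58 in CD172a+ KO and 8.45 and 8.16 in CD172a+ WT arrays. These overlapped, and the difference of -0.14 ± 0.08 did not pass (95% interval -0.32 to 0.04, adjusted p = 0.274). Zbtb46 gave 8.58 and 9.02 in CD24+ KO and 8.66 and 8.58 in CD24+ WT arrays, against 9.16 and 9.31 in CD172a+ KO and 8.98 and 9.02 in CD172a+ WT arrays. CD24+ KO replicate 2 overlapped the CD172a+ arrays, and the change was -0.41 ± 0.08 (adjusted p = 0.00223) with it and -0.52 ± 0.06 without it.

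Leaving out CD24+ KO replicate 2 kept 8 of 10 factors past the threshold in culture, among them Rbpj at 2.16, Bcl6 at 1.56, Id2 at 0.36, Zeb2 at -1.85, Irf4 at -1.85 and Batf3 at -0.88. With the culture arrays fitted alone Nfil3 missed the threshold (adjusted p = 0.0694), and in KO mice alone Nfil3 (-0.81, adjusted p = 0.143) and Id2 (0.27, adjusted p = 0.0721) did. Of 11 monocyte and macrophage markers, 2 passed as higher and 2 as lower in the cultured CD24+ cells. The list's mean level was 7.25 to 7.32 over CD24+ and 6.99 to 7.06 over CD172a+ arrays, but its median change was -0.05. The largest change (4.59) was that of Lyz2, the lysozyme of myeloid cells. Lyz2 was at 10.66 to 11.58 in CD24+ and 6.38 to 7.16 in CD172a+ arrays, and does not stand for the list. Siglech lay between 6.45 and 6.69 on all 8 cultured arrays, below their medians. Itgax, the CD11c integrin subunit, was at 10.86 to 11.08 in CD24+ and 7.86 to 8.66 in CD172a+ arrays. Of 9 pDC markers 3 passed as higher in CD24+ cells, and of 7 markers of all classical DCs 5 passed as higher and 1 as lower. Whether these differences take part in those of the factors was not tested.

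Spleen cells were neither cultured nor activated. Irf8, Id2 and Rbpj were higher in CD24+ than in CD172a+ cells, and Irf4, Zeb2 and Klf4 were lower. These were 6 of the 10 factors by the same test, where 29.1% of all genes passed, 15.6% as higher and 13.4% as lower. The median size of the change was 0.81 over the 10 factors and 0.11 over all genes tested. With only the 9969 genes above the median level tested, where the 10 factors lay, 4547 passed.

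Irf8 gave 13.16 and 13.14 in CD24+ KO and 13.05 and 13.12 in CD24+ WT arrays, against 8.89 and 9.36 in CD172a+ KO and 9.24 and 9.38 in CD172a+ WT arrays. All CD24+ arrays lay above all CD172a+ arrays, with a difference of 3.90 ± 0.09, or 15.0-fold (adjusted p = 1.04e-11). Id2, the E protein inhibitor, gave 11.84 and 11.93 in CD24+ KO and 11.89 and 11.80 in CD24+ WT arrays, against 10.75 and 10.54 in CD172a+ KO and 10.38 and 10.44 in CD172a+ WT arrays. The subsets did not overlap and differed by 1.34 ± 0.06, or 2.52-fold (adjusted p = 1.03e-08). Batf3, the partner of Irf8, gave 11.88 and 11.97 in CD24+ KO and 12.08 and 11.92 in CD24+ WT arrays, against 11.47 and 11.68 in CD172a+ KO and 11.70 and 11.80 in CD172a+ WT arrays. Its subsets did not overlap either, but the difference of 0.30 ± 0.12 missed the threshold (adjusted p = 0.0794). Nfil3 gave 11.66 to 11.84 in the 4 CD24+ arrays and 11.72 to 11.97 in the 4 CD172a+ arrays, which overlapped, and its difference was -0.08 ± 0.23. Bcl6 gave 10.55 to 10.79 in CD24+ and 10.77 to 11.17 in CD172a+ arrays, again with overlap, and its difference was -0.34 ± 0.17 (adjusted p = 0.157). Of the 5 factors that cDC1 need, Irf8 and Id2 thus passed in spleen and the other 3 did not.

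Irf4 gave 8.62 and 7.90 in CD24+ KO and 8.20 and 8.66 in CD24+ WT arrays, against 11.20 and 11.07 in CD172a+ KO and 11.04 and 11.13 in CD172a+ WT arrays. It was 6.78-fold lower in CD24+ cells, with a change of -2.76 ± 0.19 (adjusted p = 2.25e-07) and no overlap. Zeb2 gave 7.46 and 6.75 in CD24+ KO and 7.26 and 7.16 in CD24+ WT arrays, against 9.78 and 9.79 in CD172a+ KO and 9.78 and 9.68 in CD172a+ WT arrays. This was a change of -2.60 ± 0.14 without overlap, or 6.06-fold lower in CD24+ cells (adjusted p = 2.66e-08). Klf4 gave 10.74 and 10.81 in CD24+ KO and 10.64 and 10.66 in CD24+ WT arrays, against 11.94 and 11.86 in CD172a+ KO and 11.78 and 11.90 in CD172a+ WT arrays. Its change was -1.16 ± 0.08, or 2.23-fold lower (adjusted p = 3.73e-07). Rbpj, listed here with the cDC2 factors, lay on the other side: it gave 10.59 and 10.56 in CD24+ KO and 10.39 and 10.55 in CD24+ WT arrays, against 10.20 and 9.92 in CD172a+ KO and 10.05 and 10.04 in CD172a+ WT arrays. The difference of 0.47 ± 0.09, or 1.39-fold, passed (adjusted p = 0.00182). Zbtb46 gave 8.66 and 8.56 in CD24+ KO and 8.50 and 8.46 in CD24+ WT arrays, against 8.39 and 8.34 in CD172a+ KO and 8.39 and 8.38 in CD172a+ WT arrays. Its difference of 0.17 ± 0.08 missed the threshold (adjusted p = 0.144) although the arrays did not overlap.

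Keeping the pairing of the 2 arrays of each mouse (mouse as a replicate block) added Batf3 (adjusted p = 0.00686) and Bcl6 (adjusted p = 0.0134) to the calls in spleen, for 8 of 10. Batf3 (0.30) and Zbtb46 (0.17) also passed when either cultured CD24+ KO array, replicate 1 or 2, was left out. Each of these omissions removes that group's spread from the common fit. Markers of other cells also moved between the spleen subsets. Of 10 neutrophil markers 3 passed as higher in CD24+ cells, and the list's mean level was 6.36 to 8.32 over CD24+ and 6.19 to 6.57 over CD172a+ arrays, led by Ngp. CD24+ KO replicate 2 of spleen set the upper end, since the other 3 CD24+ arrays were at 6.36 to 7.12, and it also had the lowest Irf4 and Zeb2 of the 16 arrays. Without it the same number of factors, 6 of 10, passed in spleen, with Irf4 at -2.58 and Zeb2 at -2.42. Of 11 monocyte and macrophage markers 7 passed as lower in CD24+ cells, at mean levels of 7.80 to 8.13 over CD24+ and 8.62 to 9.46 over CD172a+ arrays. Of 7 B cell markers 1 passed as higher and 3 as lower, of 8 T and NK cell markers 2 as higher, and of 5 erythroid markers 1 as higher. Of 9 pDC markers 6 passed as higher and 1 as lower in CD24+ cells, and Siglech, which defines pDCs, was at 7.51 to 8.31 in CD24+ and 7.23 to 7.35 in CD172a+ arrays. The part of these cells in the changes of the factors was not tested.

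The subset difference itself differed between culture and spleen for 9 of the 10 factors, 5 with a more positive and 4 with a more negative value in culture. Here 28.2% of all genes tested passed, and 4564 when only the 9969 genes above the median level were tested. The largest of these changes among the factors was that of Irf8, at -3.87 ± 0.12 (adjusted p = 9.16e-10), from 0.04 in culture and 3.90 in spleen. Bcl6 (1.73 ± 0.23, adjusted p = 0.000146) and Rbpj (1.57 ± 0.13, adjusted p = 2.76e-06) followed. Batf3 (-1.03 ± 0.17) and Id2 (-1.03 ± 0.09) were less in favour of CD24+ cells in culture, and for Batf3 and Zbtb46 (-0.58 ± 0.11) the estimate was negative in culture and positive in spleen. Irf4 (1.03 ± 0.26), Klf4 (1.02 ± 0.12) and Zeb2 (0.83 ± 0.20) had a smaller deficit of CD24+ cells in culture than in spleen. Nfil3 gave -0.87 ± 0.33 and did not pass (adjusted p = 0.0699), but passed with the mouse as a replicate block (adjusted p = 0.00255) and without cultured CD24+ KO replicate 2 (-1.22 ± 0.18, adjusted p = 0.000186). The other 9 passed without that array too, with Irf8 at -3.90, Batf3 at -1.19, Id2 at -0.97, Bcl6 at 1.90, Irf4 at 0.92, Klf4 at 1.05, Zeb2 at 0.75, Rbpj at 1.68 and Zbtb46 at -0.69. In WT mice alone, Irf4 (0.62, adjusted p = 0.329), Zeb2 (0.61, adjusted p = 0.178) and Zbtb46 (-0.48, adjusted p = 0.0652) missed the threshold.

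**Figure D2:**
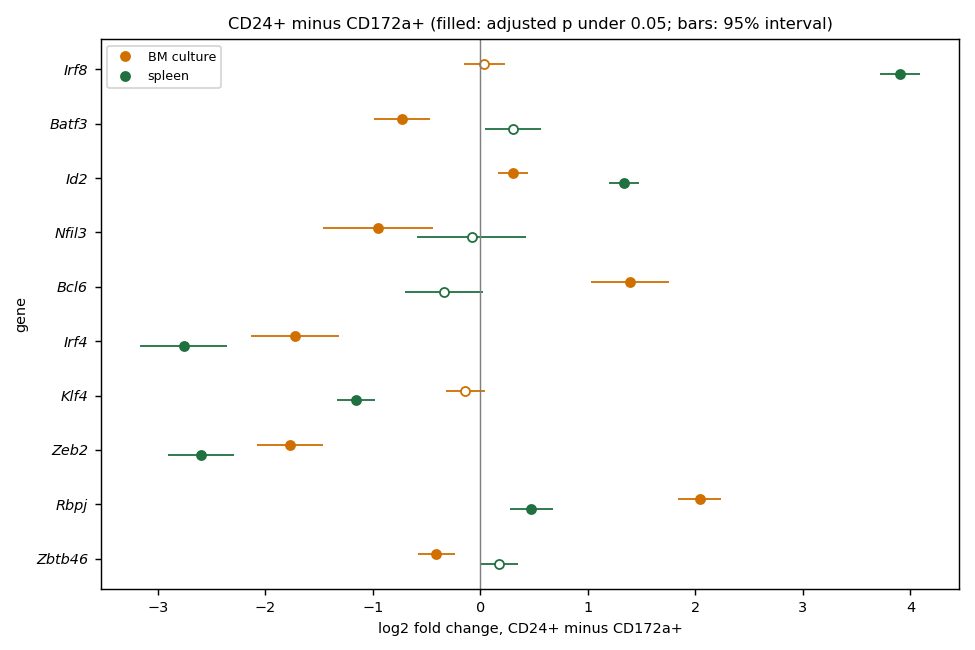
CD24+ minus CD172a+ difference (log2, horizontal axis) of each factor in BM culture (orange) and in spleen (green), with 95% intervals. Filled points passed the adjusted threshold. Irf8 is at 0.04 in culture and 3.90 in spleen, and Rbpj at 2.04 in culture and 0.47 in spleen.

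Set against spleen within each subset, activated culture moved most genes on the array, and the factors have to be read against that. In CD24+ cells 10 of 10 factors passed, 7 higher and 3 lower, where 75.5% of all genes tested passed, 44.3% as higher and 31.2% as lower. In CD172a+ cells 7 of 10 passed, 4 higher and 3 lower, where 77.8% of all genes passed, 46.7% as higher and 31.1% as lower. The median of all genes was 0.09 in CD24+ and 0.12 in CD172a+ cells after centring, and -0.34 and -0.28 in the values as deposited. Of the genes that passed, 58.6% were higher in culture in CD24+ cells and 60.0% in CD172a+ cells. With deposited values these shares were 17.4% and 21.6%, and after quantile normalization 54.0% and 56.9%. Culture also had lower levels of most markers of each cell's own subset. In CD24+ cells 8 of 10 cDC1 markers passed as lower and 1 as higher (list means 10.29 to 10.82 in culture and 12.03 to 12.32 in spleen). In CD172a+ cells 10 of 10 cDC2 markers passed as lower. The cDC1 markers were divided in CD172a+ cells, with 4 higher and 4 lower in culture (median 0.10). Of 10 neutrophil markers 7 passed as lower in cultured CD24+ cells, and of 11 monocyte and macrophage markers 7 in cultured CD172a+ cells. Their part in the changes of the factors was not tested.

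Irf8 had the largest change of the 10 in CD172a+ cells, and Klf4 in CD24+ cells. In CD24+ cells the Irf8 median-centred level was 6.57 ± 0.11 in culture and 5.81 ± 0.05 in spleen (SD, n = 4 arrays each), a difference of 0.76 ± 0.09 (adjusted p = 6.74e-06). In CD172a+ cells it was 6.51 ± 0.06 in culture and 1.92 ± 0.23 in spleen, a difference of 4.59 ± 0.09, or 24.1-fold (adjusted p = 1.02e-12). On the centred scale all 4 culture groups lay above all spleen groups, the cultured CD172a+ cells included. Id2 was higher in culture by 0.69 ± 0.07 in CD24+ cells (adjusted p = 1.91e-06) and by 1.68 ± 0.07, or 3.21-fold, in CD172a+ cells (adjusted p = 4.99e-10). Batf3 was lower in cultured CD24+ cells (-0.44 ± 0.12, adjusted p = 0.00420) and higher in cultured CD172a+ cells (0.56 ± 0.12, adjusted p = 0.000774). Bcl6 was placed the other way, at 0.59 ± 0.18 in CD24+ (adjusted p = 0.00864) and -1.17 ± 0.18 in CD172a+ cells (adjusted p = 6.09e-05). Nfil3 was lower in cultured CD24+ cells (-0.62 ± 0.23, adjusted p = 0.0278), and in CD172a+ cells its 0.22 ± 0.23 did not pass and changed sign with the scaling (-0.18 as deposited, -0.04 after quantile normalization).

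Klf4 was lower in culture in both subsets. Its centred level in CD24+ cells was 1.36 ± 0.14 in culture and 3.40 ± 0.08 in spleen, a 4.12-fold difference (-2.04 ± 0.09, adjusted p = 9.98e-10). In CD172a+ cells it was 1.48 ± 0.18 in culture and 4.57 ± 0.07 in spleen, an 8.53-fold difference (-3.09 ± 0.09, adjusted p = 2.01e-11). Rbpj moved in opposite directions, 0.60 ± 0.10 higher in culture in CD24+ cells (adjusted p = 0.000135) and 2.01-fold lower in CD172a+ cells (adjusted p = 1.40e-06). Irf4 was 2.30-fold higher in cultured CD24+ cells (adjusted p = 9.65e-05), while its 0.13 ± 0.19 in CD172a+ cells did not pass and was -0.26 as deposited and -0.06 after quantile normalization. Zeb2 was higher in cultured CD24+ cells (0.55 ± 0.14, adjusted p = 0.00280) and gave -0.31 ± 0.14 in CD172a+ cells (adjusted p = 0.0544). Zbtb46 was higher in culture in CD24+ (0.59 ± 0.07, adjusted p = 1.41e-05) and CD172a+ cells (1.14 ± 0.07, adjusted p = 3.57e-08). For Batf3, Nfil3 and Bcl6 the culture and spleen arrays of CD24+ cells overlapped, and for Nfil3, Irf4 and Zeb2 those of CD172a+ cells did.

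**Figure D3:**
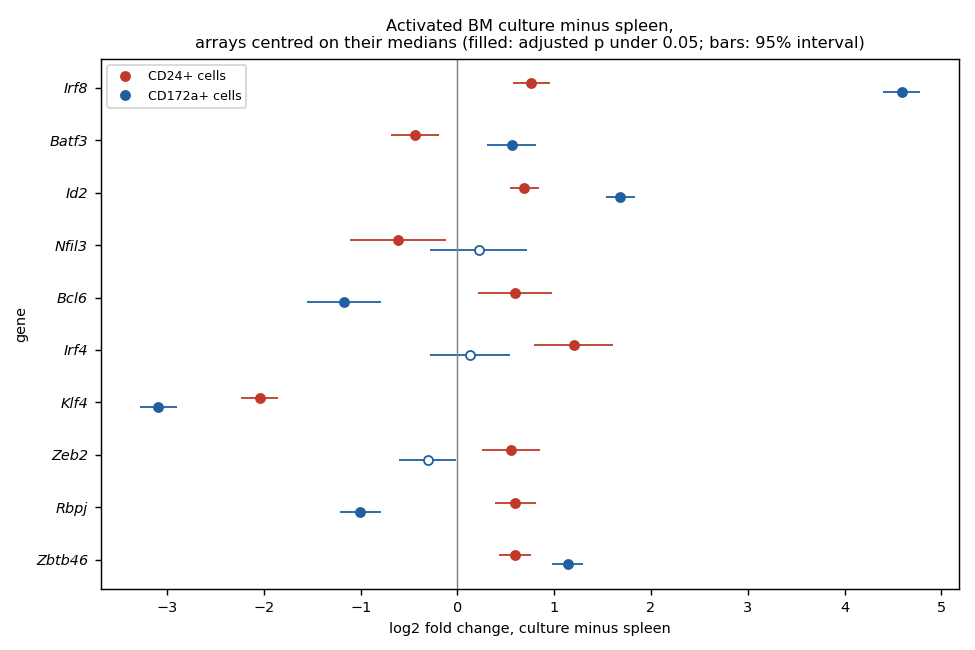
Culture minus spleen difference (log2, horizontal axis, arrays centred on their medians) of each factor in CD24+ (red) and CD172a+ (blue) cells with 95% intervals. Filled points passed the adjusted threshold. Klf4 in both subsets (-2.04 in CD24+ and -3.09 in CD172a+ cells) and Irf8 in CD172a+ cells (4.59) lie farthest from 0.

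With the values as deposited, Bcl6, Zeb2, Rbpj and Zbtb46 no longer passed in CD24+ cells (0.12 to 0.17, adjusted p = 0.0798 to 0.431), which left 6 of 10, and in CD172a+ cells Batf3 was lost (0.16, adjusted p = 0.232) and Zeb2 passed as lower (-0.71, adjusted p = 0.000529). Bcl6 in CD24+ cells also missed the threshold after quantile normalization (0.34, adjusted p = 0.0596). Nfil3 in CD24+ cells was -0.95 without cultured CD24+ KO replicate 2 and -0.28 without replicate 1. It missed the threshold when any 1 of 5 arrays was left out: cultured CD24+ KO replicate 1, cultured CD24+ WT replicate 2, spleen CD24+ KO replicate 2 and either spleen CD24+ WT array. Zeb2 in CD172a+ cells passed when any 1 of 6 arrays was left out (-0.31 to -0.41). Without cultured CD24+ KO replicate 2 all 10 factors still passed in CD24+ cells, with Irf8 at 0.74, Batf3 at -0.58, Id2 at 0.76, Bcl6 at 0.77, Irf4 at 1.09, Zeb2 at 0.49, Rbpj at 0.73 and Zbtb46 at 0.50.

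The order of the 8 centred group means differed between the factors. For Irf8 the 4 culture groups led, each overlapping its neighbour in the order, followed without overlap by spleen CD24+ KO, spleen CD24+ WT and the 2 overlapping spleen CD172a+ groups. For Irf4 the 4 CD172a+ groups led, each overlapping the next, then came cultured CD24+ KO, cultured CD24+ WT and the 2 overlapping spleen CD24+ groups. For Klf4 spleen CD172a+ led, spleen CD24+ followed without overlap, and the 4 culture groups, each overlapping the next, came last. For Rbpj the order ran from cultured CD24+ over spleen CD24+ and spleen CD172a+ to cultured CD172a+, with no overlap between these pairs. For Zbtb46 cultured CD172a+ KO cells led, the 4 culture groups lay above the 4 spleen groups, and the spleen CD172a+ groups came last. For Id2 the order ran from cultured CD24+ over cultured CD172a+ and spleen CD24+ to spleen CD172a+ cells. For Batf3, Nfil3 and Bcl6 most neighbours overlapped, with cultured CD172a+ KO cells highest in Batf3 and Nfil3 and lowest in Bcl6. Some of these orders held only after centring. As deposited, Id2 was higher in spleen CD24+ KO cells (mean 11.88) than in cultured CD172a+ KO (11.77) and WT cells (11.86). Batf3 was then highest in spleen CD24+ WT cells. The Rbpj arrays of cultured CD24+ KO cells (10.38 to 10.85) then overlapped those of spleen CD24+ KO cells (10.56 to 10.59). For Zbtb46 the deposited values of cultured CD24+ WT cells (8.58 to 8.66) overlapped those of spleen CD24+ KO cells (8.56 to 8.66).

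Between Ciita KO and WT mice, 0 of the 10 factors passed in any of 5 comparisons by limma. All genes tested passed at 0.0953% in cultured CD24+ cells, 0.0602% in cultured CD172a+ cells, 0.0602% in spleen CD24+ cells, 0.0802% in spleen CD172a+ cells and 0.0903% over all mice. At an unadjusted p under 0.05 there were 2, 1, 0, 1 and 0 factors in that order, where 7.05%, 6.63%, 4.52%, 5.22% and 6.05% of all genes were. KO and WT arrays did not overlap for 3, 5, 4 and 3 factors in the 4 comparisons of arrays, where they did not for 30.8%, 36.3%, 34.1% and 37.7% of all genes, so these counts lay near the background.

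Nfil3 had the largest genotype estimates in culture and over all mice. In cultured CD24+ cells it gave 10.43 and 11.83 in KO and 10.41 and 10.06 in WT arrays, a difference of 0.89 ± 0.33 (adjusted p = 0.630, 95% interval 0.17 to 1.61 before adjustment). Leaving out 1 array changed this value: without KO replicate 2 it was 0.20 (adjusted p = 0.850), and without KO replicate 1 it was 1.59 (adjusted p = 0.00174), when Zbtb46 (0.40, adjusted p = 0.0206) and Batf3 (0.61, adjusted p = 0.0235) passed too and 1269 genes instead of 19 were called. That last fit holds KO replicate 2 as its only KO array in this group, which stood apart, and its p-values assume that it varies like the arrays of the other groups. In cultured CD172a+ cells Nfil3 gave 11.64 and 12.25 in KO and 11.40 and 11.26 in WT arrays, a difference of 0.61 ± 0.33 (adjusted p = 0.803). Irf4 in cultured CD24+ cells differed by 0.68 ± 0.26 (adjusted p = 0.646), or 0.44 without KO replicate 2, and Bcl6 in cultured CD172a+ cells by -0.52 ± 0.23 (adjusted p = 0.743). Leaving out 1 array at a time moved Irf4 between 0.31 and 1.05, Bcl6 between -0.84 and -0.20 and Nfil3 in cultured CD172a+ cells between 0.31 and 0.92. In spleen the 2 largest estimates were Irf4 (-0.18 ± 0.26) and Zbtb46 (0.13 ± 0.11) in CD24+ cells, and Id2 (0.24 ± 0.09, adjusted p = 0.883) and Irf8 (-0.19 ± 0.12) in CD172a+ cells. Id2 in spleen CD172a+ cells was at 10.75 and 10.54 in KO and 10.38 and 10.44 in WT arrays, without overlap. Over the 4 KO and 4 WT mice, each the mean of its 2 arrays, Nfil3 gave 0.42 ± 0.19 (adjusted p = 0.819) and Bcl6 -0.22 ± 0.14 (adjusted p = 0.851). Without 1 mouse at a time these were 0.17 to 0.67 and -0.38 to -0.05, with both ends set by the 2 cultured KO mice. A change that missed the threshold with 2 arrays per group does not show that the genotypes were alike, and the intervals of single factors reached up to 1.61.

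**Figure D4:**
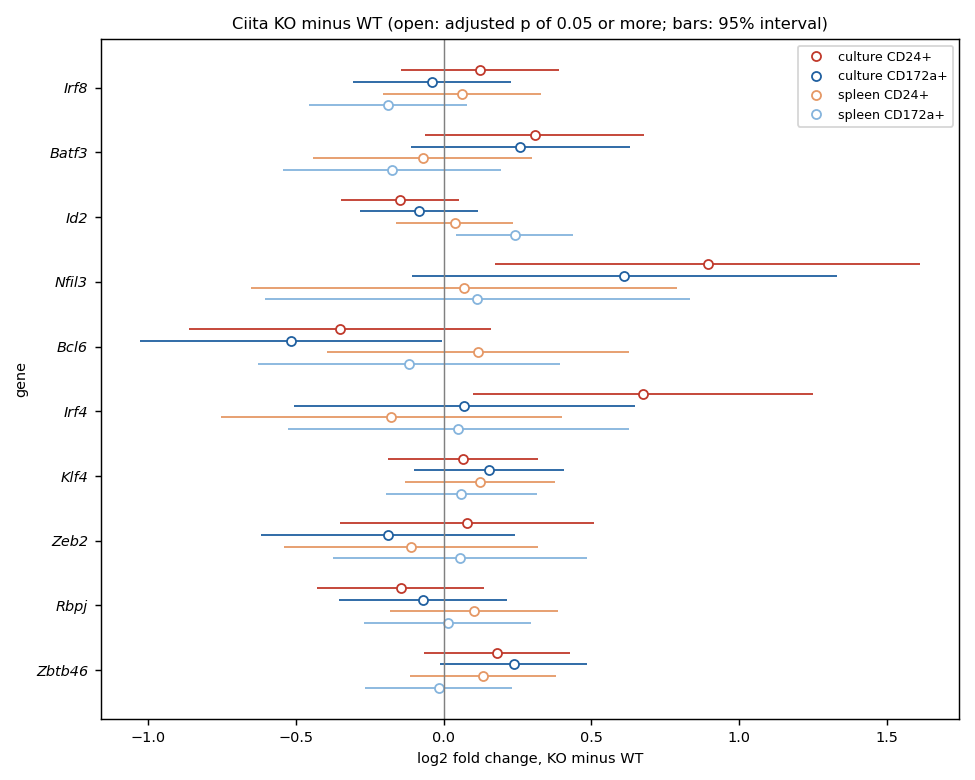
KO minus WT difference (log2, horizontal axis) of each factor in the 4 groups with 95% intervals before adjustment. All points are open since none passed, and Nfil3 and Irf4 in cultured CD24+ cells (0.89 and 0.68) lie farthest to the right with Nfil3 in cultured CD172a+ cells (0.61).

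The relatives and partners of the factors were described from 7 lists with 83 measured genes. No list was tested as a set. Between the cultured subsets, 11.2% of all genes passed as higher and 13.7% as lower in CD24+ cells. With only the 9969 genes above the median level tested, 2143 passed as higher and 2437 as lower. In culture, of the 23 other DC factors 6 were higher and 4 lower in CD24+ cells, led by Myc (1.21), Spi1 (1.09), the myeloid master factor PU.1, and Mycl (1.08). Of 11 AP-1 genes 5 were higher and 1 lower, led by Fosb (1.71), Batf (1.60) and Atf3 (0.87). Of the 6 Id and E proteins 2 were higher and 2 lower, led by Tcf4, the E protein that drives pDCs (-1.23). Of the 6 other interferon regulatory factors 2 were higher and 2 lower, led by Irf5 (0.46). Of 18 Notch genes 4 were higher and 3 lower, led by the ligand Dll4 (-1.30) and by Notch2 (0.84) and Notch1 (0.62). Kruppel-like factors had 3 of 9 higher, led by Klf2 (0.40), and the partners and relatives 3 of 10 higher, led by Zbtb7a (0.88) and Zbtb7b (0.86).

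In spleen, 13 of 23 other factors of DC and myeloid development passed as lower and 1 as higher in CD24+ than in CD172a+ cells. Among all genes, 13.4% passed as lower and 15.6% as higher there. With only the 9969 genes above the median level tested, 2116 passed as lower and 2431 as higher. The lower ones were led by the transcriptional repressors Bhlhe40 (-2.27) and Prdm1 (-1.39) and by Ikzf3 (-1.61). The median was -0.46, against 0.03 over all genes. Of 18 Notch genes 4 were higher and 6 lower, led by Dtx1 (-2.48), a target of Notch signalling, and by Notch4 (2.03) and Maml2 (1.46). Of 11 AP-1 genes 2 were higher and 4 lower, led by Fosl2 (-1.37). Of 9 Kruppel-like factors 1 was higher (Klf3, 0.86) and 3 were lower, led by Klf10 (-0.76). Among the Id and E proteins Tcf12 was higher (0.60) and Tcf4 lower (-0.44) of 6, and of 10 partners and relatives of Bcl6, Zeb2, Nfil3 and Zbtb46 1 was higher and 5 lower, led by the Bcl6 corepressor Bcor (-0.62). Of 6 other interferon regulatory factors Irf5 was higher (0.49) and Irf9 lower (-0.16). The subset difference was more positive in culture than in spleen for 13 of the 23 other DC factors and for 7 of the 11 AP-1 genes, where 12.5% of all genes were. With only the 9969 genes above the median level tested, 2110 were.

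Between culture and spleen, 44.3% of all genes passed as higher and 31.2% as lower in CD24+ cells, and 46.7% and 31.1% in CD172a+ cells. With only the 9969 genes above the median level tested, 3840 passed as higher and 4009 as lower in CD24+ cells, and 3973 and 4056 in CD172a+ cells. Counts close to either background are not particular to a list. The interferon regulatory factors had 5 of 6 higher and 1 lower in each subset. Irf1 was 3.41 higher in CD24+ and 3.14 higher in CD172a+ cells, and Irf7 2.43 and 2.21, while Irf3 was lower (-0.58 and -0.41). With deposited values 4 of 6 passed as higher in each subset. The Notch ligands Jag1 (4.01 in CD24+ and 3.57 in CD172a+ cells) and Dll4 (3.24 and 4.60) were higher in culture, Notch4 was lower in CD24+ cells (-2.02), and in CD172a+ cells Maml2 was higher (2.74). Of all 18 Notch genes 6 were higher and 6 lower in CD24+ cells, and 8 higher and 8 lower in CD172a+ cells. Of the 11 AP-1 genes 3 were higher and 6 lower in CD24+ cells and 2 higher and 9 lower in CD172a+ cells, led by Fosl2 (-2.88 and -3.51) and Fos (-2.52 in CD24+ cells), with Fosb at -3.72 in CD172a+ cells. Tcf4 was higher in culture (1.88 and 2.65), and so were the signal transducer Stat5a (2.94 and 2.70) and, in CD24+ cells, Relb (2.16). Mycl was lower in CD24+ cells (-2.39) and Myc in CD172a+ cells (-3.09). Of the other DC factors in all, 12 of 23 were higher and 8 lower in CD24+ cells, and 9 higher and 11 lower in CD172a+ cells. The genes named here kept their direction with deposited and with quantile normalized values. The counts moved with the scaling: with deposited values 5 Notch genes were higher and 12 lower in CD24+ cells, 5 higher and 11 lower in CD172a+ cells, and of the other DC factors 11 were higher and 10 lower in CD24+ and 6 higher and 13 lower in CD172a+ cells. Of 6 Id and E proteins 4 were higher and 1 lower in CD24+ cells and 4 higher in CD172a+ cells. Of 9 Kruppel-like factors 2 were higher and 4 lower in CD24+ and 3 higher and 3 lower in CD172a+ cells, led by Klf2 (-1.63 and -2.29). Of the 10 partners and relatives 6 were higher and 2 lower in CD24+ and 3 higher and 4 lower in CD172a+ cells.

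**Figure D5:**
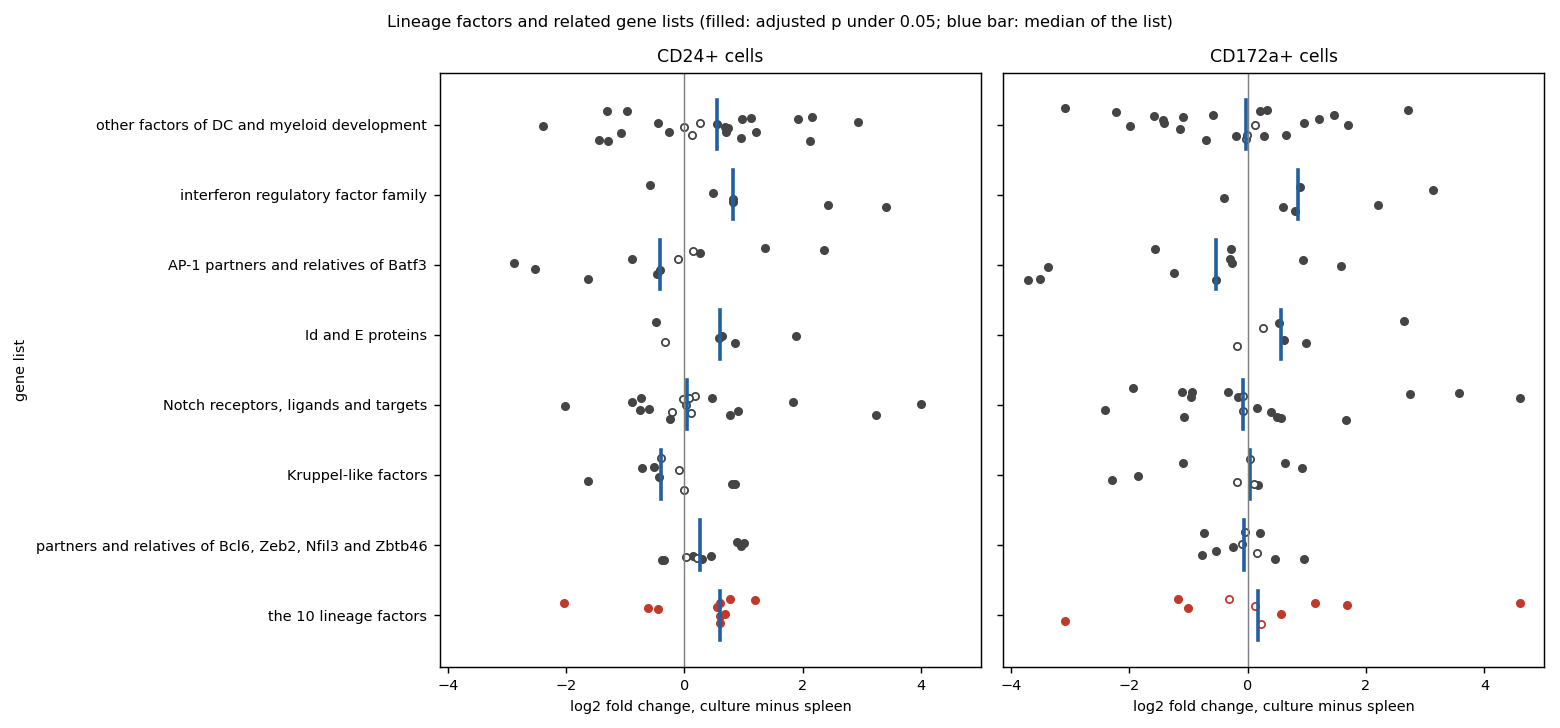
Culture minus spleen difference (log2, horizontal axes) in CD24+ (left) and CD172a+ (right) cells for the genes of the 7 related lists (dark grey) and the 10 factors (red), with filled points past the adjusted threshold and the list's median as a blue bar. Points are spread vertically within a row for legibility. The interferon regulatory factors have medians of 0.82 in CD24+ and 0.85 in CD172a+ cells.

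By genotype, 0 of the 83 related genes passed in any of the 5 comparisons by limma. At an unadjusted p under 0.05 there were 12 in cultured CD24+ cells, 14 in cultured CD172a+ cells, 5 in spleen CD24+ cells, 7 in spleen CD172a+ cells and 11 over all mice, where 7.05%, 6.63%, 4.52%, 5.22% and 6.05% of all genes were.

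For each factor, the 2 genes with the most similar pattern were found by Pearson's r over the 8 group means, centred on the array medians, among 5641 or 5642 genes that spanned at least 1 on the log2 scale. The group means share arrays and their normalization, and r is given as a description. For Irf8 they were Pkib and Pafah1b3 (r = 0.997 and 0.996), for Id2 Ccnyl1 (0.996) and Crip1 (0.995), for Batf3 Etaa1 (0.968) and E2f5 (0.964), and for Nfil3 Fam118b (0.951) and Ppm1d (0.950). For Irf4 they were Arap2 (0.996) and Fam107b (0.995), for Klf4 Tnrc6b (0.999) and Slc14a1 (0.998), for Rbpj Cyfip2 (0.997) and Mbnl2 (0.991), and for Zbtb46 Plxna1 (0.997) and Stx8 (0.996). Zeb2 was most like Rtp4 (0.984) and Sirpa (0.984), the gene of the sorted marker CD172a. Bcl6 was most like the histone genes H4c8 (0.980) and H4c6 (0.979), whose near-identical copies make their probe sets uncertain.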

How the data were processed

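The values are log2 signals per probe set that the authors deposited for each of the 16 arrays. RNA extraction used EZNA MicroElute and TURBO DNase, and amplification used Ovation Pico WTA, per the labels' protocols. The background correction and normalization behind the deposited log2 values are not stated in the labels. Depth does not apply to array signals, and 2 arrays per group limit the precision.

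Of 30177 probe sets, 21789 had 1 gene symbol, 1621 several and 6767 none. Symbols were updated through Entrez numbers for 21698. The probe set with the highest mean stood for a gene, which left 19938 genes, 999 of them with several probe sets. R 4.3.3 and limma 3.58.1 fitted 8 group means to the 16 arrays (8 residual and 3.95 prior degrees of freedom), with p-values adjusted by Benjamini-Hochberg over all genes and a threshold of 0.05. Intervals are 95% and not adjusted. Culture was compared with spleen after subtracting each array's median. The genotype over all mice used the mean of each mouse's 2 arrays. The fit was tested on simulated data. No genome was used, and promoter windows come from RefSeq (GRCm38.p6).

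The members and the gene lists were chosen with earlier results of these data known. The text names all 10 members, the up to 3 genes of each related list with the largest called changes, the 2 largest genotype estimates of members in each comparison and the 2 most similar genes. Ciita, the class II genes, single markers of other cells and Irf3 were named after their values were seen. Per the labels' source names, the CD24+ and CD172a+ arrays of 1 number came from 1 animal. Deviations from the group means correlated between these arrays at r = 0.393 (cultured KO), 0.205 (cultured WT), 0.202 (spleen KO) and -0.0957 (spleen WT). KO and WT mice were different animals. Alternatives were the mouse as a block, quantile normalization, values as deposited, other rules for probe sets and low genes, 1 tissue or genotype alone, and leaving out each array. Figures were drawn with matplotlib 3.10.9.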

Additional observations from a re-analysis of the deposited data

Results flagged for a closer look

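For 9 of the 10 factors the CD24+ minus CD172a+ difference was not the same in activated BM culture and in spleen, by limma's test of the difference between these differences (log2, culture minus spleen, 8 arrays each). The values were -3.87 for Irf8, -1.03 for Batf3, -1.03 for Id2, -0.58 for Zbtb46, 1.73 for Bcl6, 1.57 for Rbpj, 1.03 for Irf4, 1.02 for Klf4 and 0.83 for Zeb2. For Irf4, Zeb2 and Zbtb46 the test was not passed in WT mice alone. Of all genes tested 28.2% passed, so a differing subset pattern was common. Source, culture and activation changed together between culture and spleen and cannot be told apart. Groups of 2 arrays are too small for a test of single outlying arrays.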

How the results depend on the processing

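Quantile normalization gave -0.035 for Nfil3 and -0.065 for Irf4 in culture against spleen in CD172a+ cells, and the deposited scale gave -0.18 and -0.26, which turned both directions. With deposited values 6 of the 10 factors passed in CD24+ cells. In WT mice only, Nfil3 in the same CD172a+ comparison was -0.024 and the subset difference of Irf8 in culture was -0.046. Leaving out 1 array at a time gave -0.54 to 0.18 for Irf4 between genotypes in spleen CD24+ cells, -0.42 to 0.045 for Irf8 in spleen CD172a+ cells, 0 to 3 factors past the threshold in cultured CD24+ cells and 0 to 1 over all mice, where Nfil3 passed without cultured KO replicate 1 (0.67, adjusted p = 0.00732) in a fit that called 484 genes instead of 18. With the mouse as a replicate block, 8 factors passed between spleen subsets, 8 between cultured subsets and 10 in the difference between culture and spleen. A block on replicate numbers shared by different mice changed no factor's call between culture and spleen or between genotypes, and moved the all-mice genotype count of genes to 6 instead of 18. Other genotype counts also moved: the culture arrays alone gave 4 instead of 19 genes in CD24+ and 7 instead of 12 in CD172a+ cells, all probe sets gave 21 instead of 12 in spleen CD24+ and 25 instead of 16 in spleen CD172a+ cells, and genes above the median level gave 10 instead of 16 in spleen CD172a+ cells. With 1 genotype alone, the counts of genes between subsets were 2676 (KO) and 3337 (WT) instead of 4966 in culture, 3978 and 3548 instead of 5793 in spleen, and 3361 and 3262 instead of 5630 for their difference, with fewer samples. The causes of the other changes were not tested.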
